A study of Mus musculus with 32 samples.

Results

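Regions that were bound by Ikaros, acetylated throughout and never called for CHD4 were examined in B3 cells, a mouse line with a pre-B cell profile. The cells had been transduced with a retrovirus that encodes HA-tagged IKZF1 (Ikaros) fused to ERt2, and the uninduced cells carried the same construct. 4-hydroxytamoxifen (4-OHT, 500 nM), which moves the fusion into the nucleus, was given for 30 min, 1 h or 2 h, and cells at 0 h received none. Ikaros (anti-HA), CHD4 and H3K27ac were each mapped by ChIP-seq in 2 replicates per time, which gave 24 peak lists. Nothing stated that replicates were separate cultures, so the spread between them may be technical, and the cells are 1 line that overexpresses a tagged factor. The 8 Ikaros lists merged into 23844 regions. Of these, 8829 overlapped a peak in both 2 h Ikaros lists, and 7702 of the 8829 also overlapped a peak in all 8 H3K27ac lists. The members are the 1213 of these 7702 acetylated regions (15.7%) that overlapped no peak in any of the 8 CHD4 lists, and they are called CHD4-uncalled regions here. They were compared with the 2425 acetylated regions (31.5%) that had a CHD4 peak in both 2 h lists, called CHD4-called regions. These calls chose the regions and are no results in themselves. The remaining acetylated regions had CHD4 in some lists but not in both 2 h lists. As a check of the cell label, the pre-B marker genes Cd79a, Cd79b, Ebf1, Pax5, Igll1 and Vpreb1 had H3K27ac in all 8 lists within 1 kb of a transcription start site (TSS). Of 8 marker genes of T, myeloid and erythroid cells, 0 did.

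Ikaros is a zinc finger transcription factor of lymphoid cells that recognises DNA around a GGGA or GGAA core. CHD4 is the ATPase of the NuRD complex, which joins nucleosome remodelling with histone deacetylation and is a well-known partner of Ikaros. H3K27ac marks active promoters and enhancers. A region that holds Ikaros and H3K27ac with no CHD4 peak is therefore a place where binding of the factor was recorded without a peak of this partner.

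The sequence under the Ikaros summit shows what the binding sites looked like. Windows of 201 bp around the stronger 2 h summit are printed for the 3 promoter and 2 distal CHD4-uncalled regions with the highest Ikaros rank at 2 h. Windows that touched an annotated untranslated region were passed over. Each window is named by its nearest protein-coding gene, is on the plus strand of GRCm38 (mm10), and has every core word (GGAA or TTCC, and GGGA or TCCC) in capitals.
Otud5, chrX:7841429-7841629: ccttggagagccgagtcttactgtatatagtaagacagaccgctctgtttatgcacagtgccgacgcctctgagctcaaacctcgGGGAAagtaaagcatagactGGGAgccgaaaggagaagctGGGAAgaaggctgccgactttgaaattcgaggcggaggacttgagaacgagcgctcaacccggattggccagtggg
Rab5a, chr17:53478862-53479062: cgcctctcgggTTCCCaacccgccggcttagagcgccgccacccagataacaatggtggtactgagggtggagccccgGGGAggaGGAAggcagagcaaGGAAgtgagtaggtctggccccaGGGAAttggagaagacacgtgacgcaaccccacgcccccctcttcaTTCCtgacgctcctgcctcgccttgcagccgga
Pik3r2, chr8:70777014-70777214: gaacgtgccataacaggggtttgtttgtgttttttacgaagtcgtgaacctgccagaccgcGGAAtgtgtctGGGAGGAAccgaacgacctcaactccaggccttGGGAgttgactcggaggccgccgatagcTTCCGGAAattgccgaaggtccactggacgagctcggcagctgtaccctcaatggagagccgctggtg
Zfp626, chr7:27804604-27804804: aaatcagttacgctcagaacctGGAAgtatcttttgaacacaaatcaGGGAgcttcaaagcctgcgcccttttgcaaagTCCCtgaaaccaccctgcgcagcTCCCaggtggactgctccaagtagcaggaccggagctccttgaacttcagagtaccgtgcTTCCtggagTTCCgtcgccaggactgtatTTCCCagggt
Map3k20, chr2:72369305-72369505: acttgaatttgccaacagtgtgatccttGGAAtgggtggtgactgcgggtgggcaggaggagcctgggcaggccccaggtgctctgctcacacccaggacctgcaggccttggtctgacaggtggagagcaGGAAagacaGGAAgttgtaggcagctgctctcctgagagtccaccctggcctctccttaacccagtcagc
The Otud5 window held 5 core words and 12 CpG dinucleotides. The Rab5a window held 8 core words and 13 CpGs, and the Pik3r2 window 6 core words and 15 CpGs. The distal windows held fewer CpGs. The Zfp626 window had 8 core words with 7 CpGs, and the Map3k20 window 3 core words with 1 CpG. Windows of CHD4-called regions with high Ikaros rank, from the promoters of Rac2 and Dusp2 and from a distal region nearest to Mcfd2, are shown for comparison.
Rac2, chr15:78572813-78573013: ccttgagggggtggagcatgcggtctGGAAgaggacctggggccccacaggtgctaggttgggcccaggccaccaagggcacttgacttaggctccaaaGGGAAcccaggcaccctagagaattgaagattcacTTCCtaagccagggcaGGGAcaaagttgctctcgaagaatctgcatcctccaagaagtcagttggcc
Dusp2, chr2:127335293-127335493: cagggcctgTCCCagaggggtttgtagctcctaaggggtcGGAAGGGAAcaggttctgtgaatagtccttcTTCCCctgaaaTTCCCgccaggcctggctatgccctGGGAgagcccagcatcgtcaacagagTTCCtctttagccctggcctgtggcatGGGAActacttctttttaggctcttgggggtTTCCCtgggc
Mcfd2, chr17:87202507-87202707: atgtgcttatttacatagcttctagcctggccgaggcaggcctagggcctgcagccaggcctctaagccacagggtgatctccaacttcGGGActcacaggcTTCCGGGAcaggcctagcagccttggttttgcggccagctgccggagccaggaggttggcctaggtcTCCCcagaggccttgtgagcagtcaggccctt
CHD4 was called in all 8 lists at these 3 regions. It was called in 3, 5 and 8 lists at Ttc9c, Ctdnep1 and Def6, which ranked higher and are not printed. There the observed to expected ratio of CpG over 301 bp was 0.761, 0.642 and 0.428. The median of CHD4-called promoters was 0.553, so the printed windows do not stand for the class. The Rac2 window held 5 core words and 2 CpGs, the Dusp2 window 14 core words and 3 CpGs, and the Mcfd2 window 4 core words and 5 CpGs. High Ikaros rank therefore occurred with many and with few core words in both classes.

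The rule depends on where the CHD4 calls end. The CHD4 lists held 2488 to 9593 peaks, the Ikaros lists 5373 to 14874 and the H3K27ac lists 21468 to 33664. No CHD4 peak means no call at the authors' threshold, not absence of the protein. Just outside the rule were 1222 acetylated regions with CHD4 in exactly 1 list. Of these, 534 (43.7%) had it in the 2 h replicate 2 list alone, the longest of the 8, with a median −log10 q of 1.65 and a median fold of 3.10. Regions with CHD4 in all 8 lists had medians of 2.81 and 3.44 in that same list. The lowest −log10 q that the CHD4 lists hold is 1.01. The calls in 1 list were thus weak, and the peaks of regions called throughout were only a little stronger in fold. On the Ikaros side, the lowest −log10 q of a CHD4-uncalled region in either 2 h list was 1.31, against 1.30 for the weakest peak of the narrow lists. A further 2491 regions without CHD4 were acetylated in all 8 lists but called for Ikaros in only 1 of the 2 h lists, and 75 regions met the Ikaros and CHD4 rules with H3K27ac in 7 lists. The nearest CHD4 peak of any list was a median of 23252 bp away. It lay within 10 kb of 421 CHD4-uncalled regions (34.7%), within 1 kb of 171 (14.1%) and within 100 bp of 20.

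The CHD4-uncalled regions stood at one end of a graded series. Among the acetylated regions, the share within 1 kb of a TSS was 84.3% with CHD4 in 0 lists, 74.2% in 1, 58.3% in 3, 45.6% in 5 and 34.8% in 8. The mean percentile rank of the Ikaros fold at 2 h (100 is the strongest peak of a list) ran the other way, from 49.2 with CHD4 in 0 lists to 61.2 in 4 and 77.8 in 8. The mean H3K27ac rank rose from 55.6 to 63.7 and 79.6 at the same steps. Median region width rose from 848 bp to 1278 bp and 1916 bp. The part of width in the series was not tested. Regions with CHD4 in 1 list had an Ikaros rank of 54.3, an H3K27ac rank of 57.5 and a median width of 974.5 bp.

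**Figure D1:**
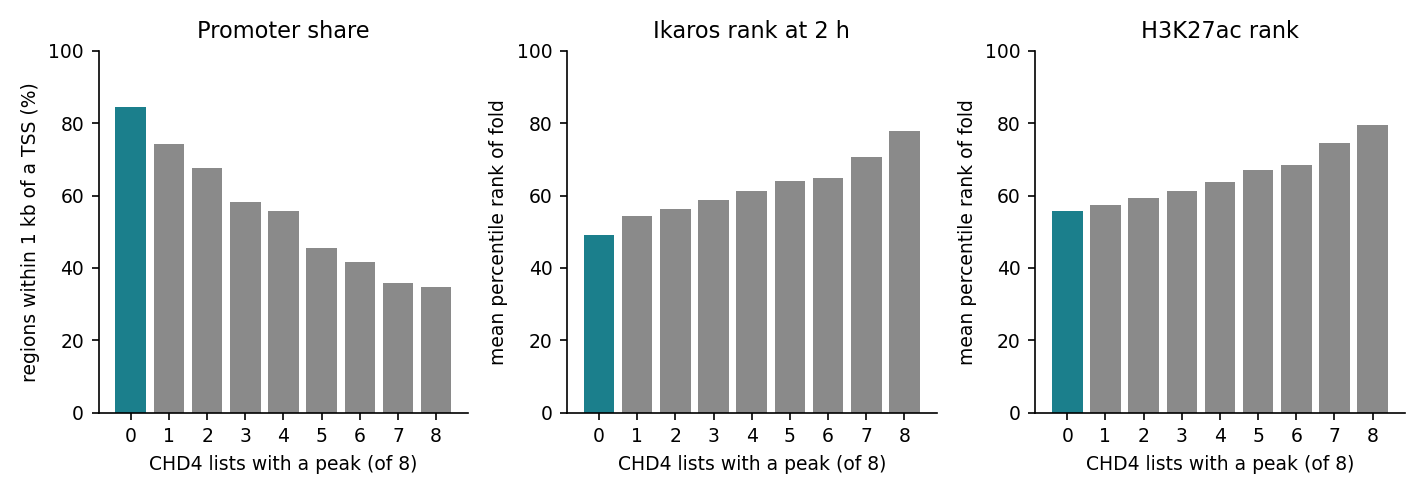
Acetylated Ikaros regions grouped by the number of CHD4 lists (of 8, x axis) in which they overlap a peak. Bars give the share within 1 kb of a TSS in percent, the mean percentile rank of the Ikaros fold over both 2 h lists and the mean H3K27ac rank over 8 lists. The regions with 0 lists (coloured) have the highest promoter share, 84.3%, and the lowest ranks, 49.2 and 55.6.

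CHD4-uncalled regions were mostly promoters. Of 1213, 1023 (84.3%) lay within 1 kb of a TSS, against 1176 of 2425 CHD4-called regions (48.5%) and 59.7% of all acetylated 2 h Ikaros regions. A TSS lay inside 66.2% of the CHD4-uncalled and 39.7% of the CHD4-called regions. At the far end, 70 CHD4-uncalled regions (5.77%) were 10 to 100 kb from a TSS and 1 was farther, against 22.9% and 0.660% of CHD4-called regions. The median distance was 0 bp against 1290 bp. The difference in promoter share, 35.8 percentage points, was 40.1 points within bins of equal Ikaros rank and 42.4 points within bins of equal width. Measured from the stronger summit, it was 39.4 points. With the rule and the values taken from the lists of 1 replicate, it was 16.6 points for replicate 1 and 27.1 points for replicate 2.

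Seen from the other side, 22.3% of acetylated promoter regions and 6.12% of acetylated distal regions were CHD4-uncalled. CHD4 was called in both 2 h lists at 25.6% of the promoter and 40.2% of the distal regions. The share of CHD4-uncalled regions fell with Ikaros rank in both kinds. In the weakest 10% by 2 h Ikaros rank it was 34.9% of promoters and 12.2% of distal regions. In the strongest 10% it was 5.74% and 0.664%. A strong Ikaros peak with no CHD4 call was thus rare, with 29 regions in the top 10%, and 93.1% of those 29 were promoters. Among the promoters, 174 of 1023 (17.0%) had protein-coding TSSs on both strands within 1 kb, against 8.84% of CHD4-called promoters. A promoter with no protein-coding TSS within 1 kb made up 3.03% of the first and 14.5% of the second. The summits of the 190 distal CHD4-uncalled regions lay in introns in 55.3% and between genes in 38.9% of cases, against 47.9% and 48.2% for distal CHD4-called regions.

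**Figure D2:**
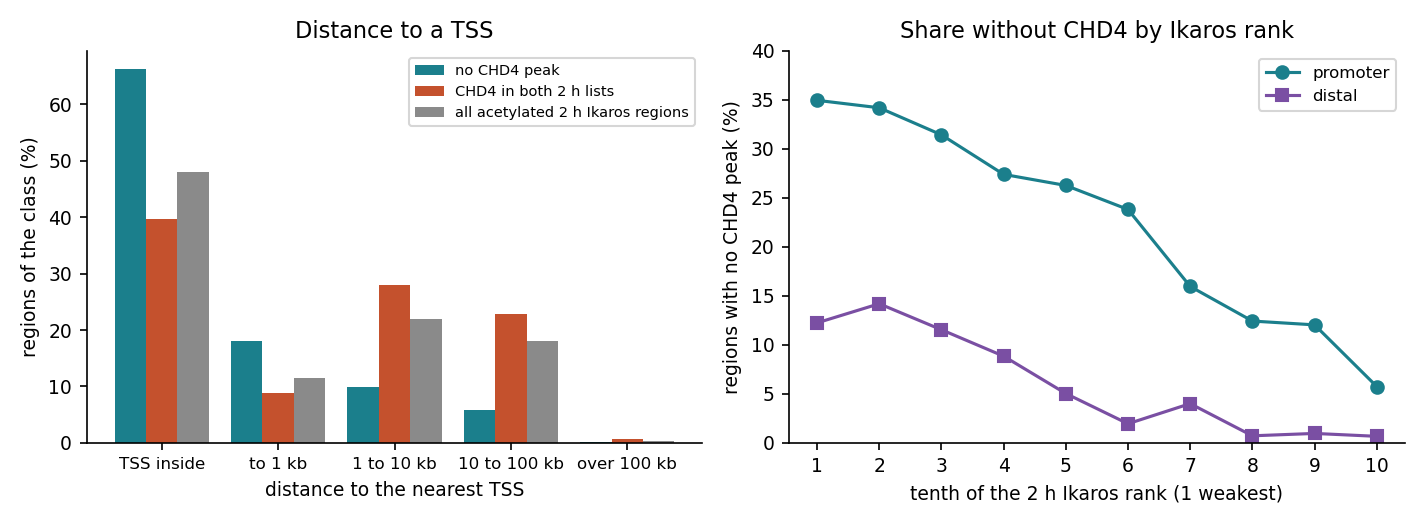
Left, share of each class (percent) by distance from the region to the nearest TSS, for regions with no CHD4 peak (n = 1213), with CHD4 in both 2 h lists (n = 2425) and for all 7702 acetylated 2 h Ikaros regions. Right, share of acetylated regions with no CHD4 peak (percent) in each of 10 equal bins of the 2 h Ikaros rank, which falls from 34.9% to 5.74% at promoters and from 12.2% to 0.664% at distal regions.

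CHD4-uncalled regions were called for Ikaros less often before 2 h, by a difference that did not pass the test after adjustment. At 0 h, 37.3% and 40.2% of them were called for Ikaros in replicates 1 and 2, against 62.7% and 71.6% of the CHD4-called regions. At 30 min the shares were 45.6% and 17.3% against 82.7% and 63.4%. At 1 h they were 68.3% and 74.1% against 91.9% and 94.8%. The 30 min replicate 2 list, the shortest with 5373 peaks, gave the lowest share, and the CHD4-uncalled shares were below the CHD4-called ones at each of the 3 times. The mean difference over the 6 libraries was -30.7 ± 9.53 percentage points (SD, n = 6; exact sign-flip permutation test, p = 0.0312, adjusted over 8 tests p = 0.05), which is the smallest p 6 libraries allow and does not fall below 0.05 after adjustment. It was -13.5 points within bins of equal width and -18.9 within bins of equal 2 h Ikaros rank. Only 320 CHD4-uncalled regions (26.4%) were called in both 0 h lists, against 1377 CHD4-called regions (56.8%) and 47.4% of the acetylated regions. Neither 0 h list held 593 (48.9%) of them, against 22.5% and 30%. All 8 Ikaros lists held 82 (6.76%), against 43.2% of CHD4-called and 28.2% of the acetylated regions. Calls at 2 h alone were found for 114 (9.40%), against 1.40% and 3.23%. Calls at 0 h were made without 4-OHT, where the fusion is not induced.

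In the libraries that called them, the CHD4-uncalled regions also ranked lower. At 0 h the mean Ikaros rank was 47.7 and 46.4 against 58.8 and 59.0 for the CHD4-called regions. At 30 min it was 46.9 and 45.7 against 64.8 and 61.4, and at 1 h 49.7 and 51.5 against 68.7 and 69.2. At 2 h it was 50.5 and 48.0 against 70.1 and 68.1. The mean of the CHD4-uncalled regions was the lower in each library. The difference was -16.7 ± 3.31 rank points (SD, n = 8 libraries), below 0 in 8 of 8 (exact sign-flip permutation test, p = 0.00781, the smallest 8 libraries allow, adjusted p = 0.0156). Such p-values cover the spread between libraries over a fixed set of regions. In fold enrichment over background, the median at 2 h was 4.22 and 4.80 for CHD4-uncalled and 5.37 and 5.97 for CHD4-called regions. The quartile ranges overlapped, with 3.67 to 4.95 against 4.39 to 6.50 in replicate 1 and 3.96 to 5.53 against 4.80 to 7.68 in replicate 2. The lower rank held at promoters, -16.2 ± 3.85, and at distal regions, -20.8 ± 5.31, and it was -10.4 points within bins of equal width.

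The difference in Ikaros rank was larger at later times, but the ranks are percentiles within lists of different length. The Ikaros lists held 7822 and 9527 peaks at 0 h and 9181 and 5373 at 30 min. They held 12447 and 14874 at 1 h and 14225 and 14179 at 2 h, and a longer list can raise the percentile of the same peak. More CHD4-uncalled regions also entered the mean at later times. The difference was -11.9 ± 1.12 rank points at 0 h, -16.8 ± 1.63 after 30 min, -18.3 ± 0.904 after 1 h and -19.9 ± 0.350 after 2 h (mean ± SD of 2 libraries). Over time this gave a rho of -0.93 (exact permutation test over all pairings, n = 8, p = 0.00317, adjusted p = 0.0156). Pearson's r was -0.87 (permutation p = 0.0107, adjusted over 4 trends p = 0.0429), and -0.91 without the 2 h libraries. Of the planned settings, 2 gave less. With uncalled regions counted at rank 0, rho was 0.098 (exact permutation p = 0.861), and against regions with CHD4 in all 8 lists it was -0.68 (exact permutation p = 0.0825). In 3 settings added after the values were seen, rho was also smaller in size, and the first of them kept its call without adjustment. With every list reduced to its strongest peaks, as many as the shortest list has, rho was -0.78 (exact permutation p = 0.0349). With log2 fold in place of the rank it was -0.68 (exact permutation p = 0.0825). Over regions called in all 8 Ikaros lists, ranked among themselves, it was -0.73 (exact permutation p = 0.0548). A change over time in Ikaros binding is therefore not read from these ranks.

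**Figure D3:**
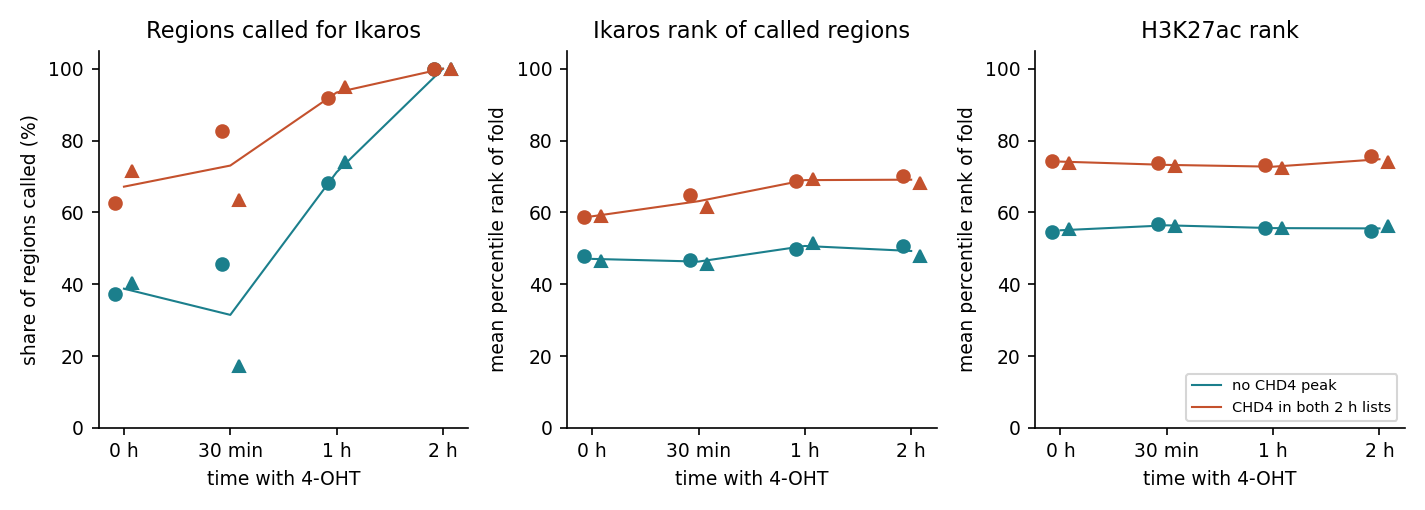
Share of regions called for Ikaros (percent), mean percentile rank of the Ikaros fold over called regions and mean H3K27ac rank, by time with 4-OHT. Circles are replicate 1, triangles replicate 2 and lines the mean of both (n = 2), and the 2 h shares are 100% by the rule. The mean of the regions with no CHD4 peak lies below that of the CHD4-called regions in all 8 libraries for both ranks.

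H3K27ac was also lower at CHD4-uncalled regions, although it was present in all 8 lists by the rule. The H3K27ac rank was taken among the 14715 merged H3K27ac regions called in all 8 lists, and 1 CHD4-uncalled region had none. At 0 h the mean rank was 54.6 and 55.5 in replicates 1 and 2, against 74.4 and 73.9 for CHD4-called regions. At 30 min it was 56.7 and 56.1 against 73.6 and 72.8, and at 1 h 55.6 and 55.7 against 73.2 and 72.3. At 2 h it was 54.9 and 56.2 against 75.6 and 74.0. The mean of the CHD4-uncalled regions was the lower in each library, although single regions overlapped. The quartile range of the H3K27ac fold was 9.06 to 19.7 against 15 to 30.1 at 0 h replicate 1, and 6.34 to 13.4 against 9.41 to 19.5 at 2 h replicate 2. The difference was -18.1 ± 1.5 rank points (SD, n = 8), below 0 in 8 of 8 (exact sign-flip permutation test, p = 0.00781, adjusted p = 0.0156). It was -16.1 within bins of equal Ikaros rank, -13.8 within bins of equal width and -11.6 when all peaks of each list were ranked. With replicate 2 lists alone it was -7.74. The difference had no trend with time (rho = 0, exact permutation p = 1, n = 8, adjusted p = 1; r = -0.18, permutation p = 0.680, adjusted over 4 trends p = 0.906). Without the 2 h libraries r was 0.72.

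The distal CHD4-uncalled regions ranked lower than the promoter ones, which stood at 56.6 to 59.8. Their mean rank was 41.7 and 38.4 at 0 h, 40 and 39.5 at 30 min, 39.9 and 43.2 at 1 h, and 45.6 and 42.2 at 2 h. Distal CHD4-called regions stood at 70.5 to 75.6 over the 8 libraries. The gap was -30.8 ± 1.71 rank points, against -17.2 ± 1.31 at promoters. It was larger at distal regions in 8 of 8 libraries, by -13.6 ± 2.00 (exact sign-flip permutation test, n = 8, p = 0.00781, adjusted over 3 tests p = 0.00781), a comparison added after the values were seen. The distal gap gave a rho of 0.63 over time that did not pass the test (exact permutation p = 0.110, n = 8, adjusted p = 0.147; r = 0.46, permutation p = 0.263, adjusted p = 0.525). With both 2 h libraries left out, rho was 0.36 (exact permutation p = 0.533, n = 6) and r was 0.62. The promoter gap gave a rho of 0.049 (exact permutation p = 0.946, adjusted p = 1; r = 0.025, permutation p = 0.956, adjusted p = 0.956; r = 0.73 without the 2 h libraries).

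From 0 h to 2 h the H3K27ac rank of single regions moved both ways. The rank compares whole merged H3K27ac regions with each other, so its changes cannot be read as local gains or losses of acetylation. The median H3K27ac fold of CHD4-uncalled regions was 13.5 and 11.7 at 0 h and 9.1 and 9.2 at 2 h. The median of CHD4-called regions was also lower at 2 h in both replicates. Folds are read against each library's own background, and their change was not tested. The rank rose by at least 10 points in both replicates at 131 of 1212 CHD4-uncalled regions (10.8%) and fell as far at 117 (9.65%). Over all acetylated regions the shares were 10.1% and 12.4%, so the members were near the background. CHD4-called regions gave 11.1% and 8.99%. Distal CHD4-uncalled regions rose in 37 of 190 cases (19.5%) and fell in 14 (7.37%), with a mean change of 3.95 and 3.86 points in replicates 1 and 2. Distal CHD4-called regions also rose more often than they fell, in 14.0% and 8.25% of cases, with mean changes of 2.97 and 0.969 points. All distal acetylated regions rose in 13.3% and fell in 13.3%, with mean changes of 0.0890 and -0.832 points. Ikaros status at 0 h went with the direction in both classes. CHD4-uncalled regions called in neither 0 h Ikaros list changed by 1.59 and 3.06 points, and those called in both by -1.13 and -2.26. For CHD4-called regions the values were 6.43 and 5.98 against -1.60 and -2.94. With 2 replicates these changes were not tested.

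DNA at the summit was richer in GC and CpG in the CHD4-uncalled class, and among promoters alone as well, but not among distal regions. Over 301 bp around the stronger 2 h summit, the median GC content was 57.1% in CHD4-uncalled and 52.8% in CHD4-called regions. It was 53.8% in all acetylated regions. At distal regions it was 49.3% against 50.5%. The observed to expected ratio of CpG was 0.657 against 0.337, and 0.424 in all acetylated regions. Among promoters alone it was 0.708 against 0.553, and among distal regions 0.249 against 0.253. Of 15 words searched, the 4 shown here were chosen after their values were seen. A GC box word, GGGCGG or CCGCCC, occurred in 44.6% against 23.6% of regions and in 30.4% of all acetylated regions, and in 51.0% against 36.6% of promoters. At distal regions it was 10% against 11.4%. The ETS word CCGGAA or TTCCGG, which shares letters with the core words, occurred in 28.2% against 17.2% of regions and in 19.8% of all acetylated regions, and in 31.8% against 23.7% of promoters. At distal regions it was 8.95% against 11%. The E2F word TTCCCGC or GCGGGAA occurred in 10.5% against 4.54% of regions and in 6.75% of all acetylated regions, in 11.8% against 7.65% of promoters and in 3.16% against 1.60% of distal regions. The RUNX word TGTGGT or ACCACA ran the other way, with 16.5% against 28.5% of regions and 23.9% of all acetylated regions. It was found in 13.4% against 21.4% of promoters and in 33.2% against 35.1% of distal regions. Both strands were searched, and a word match is a description and not a site.

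Core words, counted within 50 bp of each library's own summit, were denser there than in flanks 400 to 500 bp away in both classes and in all 8 libraries. CHD4-uncalled regions had an excess of 1.93 and 2.08 words per 100 bp at 0 h, 1.24 and 1.36 at 30 min, 1.23 and 1.08 at 1 h, and 0.777 and 1.04 at 2 h. Their excess was higher than that of CHD4-called regions by 0.151 ± 0.105 words (SD, n = 8, exact sign-flip permutation test, p = 0.00781, adjusted p = 0.0156). The difference in 2 h replicate 1 was 0.0072. The direction depended on the kind of region. At promoters CHD4-uncalled regions had more words in 8 of 8 libraries, by 0.182 ± 0.131. At distal regions they had fewer in 8 of 8, by -0.304 ± 0.206. The pooled sign was that of the promoters, which are 84.3% of the CHD4-uncalled regions. Within bins of equal 2 h Ikaros rank the difference was 0.354 (exact sign-flip permutation test, n = 8, p = 0.00781), and within bins of equal width it was 0.027 (exact sign-flip permutation test, n = 8, p = 0.695). For the longer words TGGGAA and TTCCCA it was 0.021 (exact sign-flip permutation test, n = 8, p = 0.0859).

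**Figure D4:**
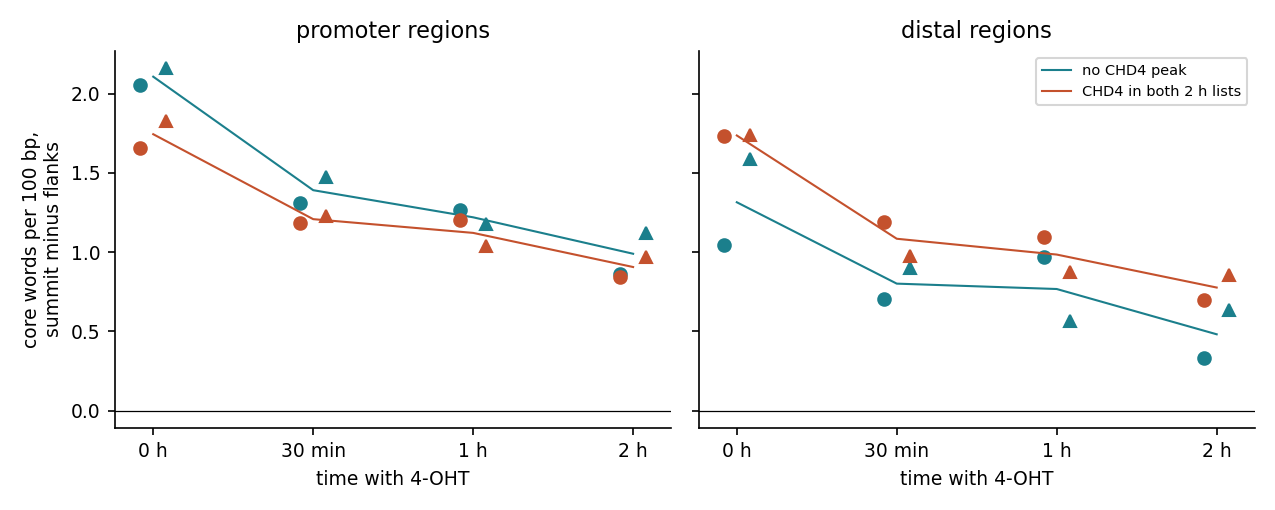
Density of core words (words per 100 bp) in the central window of 50 bp to either side of a summit after subtracting the density 400 to 500 bp away, by time with 4-OHT, for promoter (left) and distal (right) regions. Circles are replicate 1, triangles replicate 2 and lines the mean of both. The mean of the regions with no CHD4 peak lies above that of the CHD4-called regions at promoters and below it at distal regions in all 8 libraries.

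The genes at CHD4-uncalled promoters were described by gene lists. Of 9288 protein-coding genes with an acetylated promoter, 1169 (12.6%) had a CHD4-uncalled region and 1061 (11.4%) a CHD4-called region within 1 kb of a TSS, and 26 had both. Of the 4403 with any acetylated 2 h Ikaros region there, the shares were 26.6% and 24.1%. Lists are described by counts beside these shares, and no test was run on them.

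No gene of the B cell lists had a CHD4-uncalled region at its promoter. Of 17 B-lineage transcription factor genes with an acetylated promoter, 13 had an acetylated 2 h Ikaros region. At 0 of the 13 was that region CHD4-uncalled, and 9 (69.2%) had a CHD4-called region. The 9 were Ebf1, Pax5, Foxo1, Bcl11a, Runx1, Lef1, Bach2, Myb and Zeb2. Genes of the pre-B receptor and recombination gave 0 and 9 of 10 bound genes. These 9 included Igll1 and Vpreb1, which encode the surrogate light chain, Cd79a and Cd79b, the signalling chains of the receptor, and Il7r. Taking the nearest protein-coding TSS at any distance, 0 of 1213 CHD4-uncalled and 41 of 2425 CHD4-called regions (1.69%) belonged to the transcription factor list. The receptor list had 0 and 20 (0.825%). For counts by the nearest TSS, here and below, the share over all acetylated regions was not computed.

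Genes of DNA replication had more CHD4-uncalled than CHD4-called regions. Of 17 bound genes, 8 (47.1%) had a CHD4-uncalled region and 2 (11.8%) a CHD4-called region. The 8 were Mcm2, Mcm3, Mcm4 and Mcm7, subunits of the replicative helicase, Gins2, Orc4 of the origin recognition complex, Pola1, the catalytic subunit of polymerase alpha, and Rpa2, a single-strand binding protein. Orc5 and Cdt1 had CHD4-called regions. By the nearest protein-coding TSS, the list had 6 CHD4-uncalled (0.495% of the class) and 2 CHD4-called regions (0.0825%). Not each of the 8 genes was thus the nearest to its region. The Mcm3 region was called in all 8 Ikaros lists, with folds of 5.17 and 7.03 at 0 h, 7.54 and 8.38 at 30 min, 6.25 and 8.58 at 1 h, and 4.90 and 8.52 at 2 h. The Mcm4 region was called in 4, with folds of 4.61 and 5.57 at 1 h and 3.36 and 5.76 at 2 h. Both had a TSS inside the region. The H3K27ac rank of the 8 regions, averaged over the libraries, ran from 52.7 at Gins2 to 95.8 at Mcm7.

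Other housekeeping lists are set beside the shares of all bound genes, 26.6% and 24.1%. Spliceosome genes had 6 and 3 of 15 bound genes (40% and 20%), mitochondrial ribosomal protein genes 8 and 4 of 25 (32% and 16%), and proteasome genes 5 and 2 of 16 (31.2% and 12.5%). Cytosolic ribosomal protein genes had 3 and 4 of 21 (14.3% and 19.0%). These counts are small, and several are near the background. Cell cycle genes had 3 and 4 of 12 (25% and 33.3%), with Ccna2, a cyclin of S phase and G2, and the inhibitor genes Cdkn1b and Cdkn2c in the CHD4-uncalled class. Myc, Ccnd3, Ccnb1 and Cdk1 were in the CHD4-called class. Of NuRD subunit genes, 5 were bound, and Mbd2 and Rbbp4 had CHD4-uncalled regions with 0 CHD4-called ones. By the nearest protein-coding TSS at any distance, NuRD genes had 1 CHD4-uncalled (0.0824% of the class) and 3 CHD4-called regions (0.124%). These 3 were all over 1 kb away. Genes that the text of the study names as fast repressed gave 1 and 7 of 12, and the 1 was Gins2. By the nearest TSS, they had 2 CHD4-uncalled (0.165% of the class) and 19 CHD4-called regions (0.784%). The second of the 2 was the distal region nearest to Plekho2. That list was chosen on these cells, so it is not independent evidence.

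**Figure D5:**
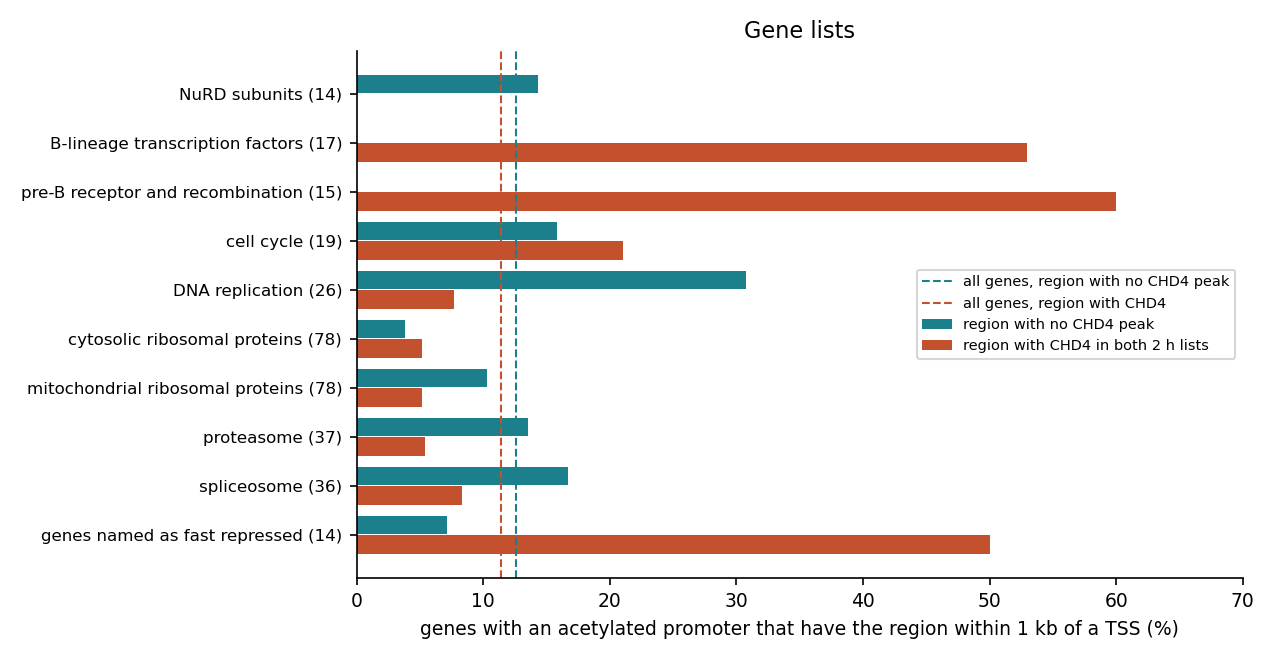
Share of genes with an acetylated promoter (percent, number in parentheses) that have a region with no CHD4 peak or a region with CHD4 in both 2 h lists within 1 kb of a TSS, for 10 gene lists. Dashed lines are all 9288 protein-coding genes with an acetylated promoter, 12.6% and 11.4%. The replication list reaches 30.8% for regions with no CHD4 peak, and the B-lineage factor and pre-B receptor lists are at 0 there and at 52.9% and 60% for CHD4.

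The 10 CHD4-uncalled regions with the highest Ikaros rank at 2 h all held a TSS. They lay at Otud5, Map9, Acin1, Kat7, Rab5a, Mgea5, Pik3r2, Tfg, Rad51b and Lin52, with mean ranks of 94.9 to 97.8. Otud5, which encodes a deubiquitinase (region chrX:7841166-7841998, summit in an exon), was called in 8 of 8 lists. Its Ikaros folds were 7.02 and 9.36 at 0 h, 4.69 and 5.93 at 30 min, 9.94 and 11.4 at 1 h, and 8.57 and 9.60 at 2 h. Both 1 h folds were above the 0 h folds, both 30 min folds were below them, and the 2 h folds overlapped them. Tfg, a gene of transport from the endoplasmic reticulum (chr16:56717111-56718562, summit between genes), had folds of 10.6 and 13.1 at 0 h and 6.75 and 9.60 at 2 h. Lin52, a subunit of the DREAM complex (chr12:84450663-84452189, summit in an untranslated region), was not called at 0 h. Its folds were 7.35 and 6.04 at 30 min, 8.77 and 12.1 at 1 h, and 7.1 and 8.41 at 2 h. Mgea5, which encodes O-GlcNAcase (chr19:45782107-45784416), was also not called at 0 h and had 2 h folds of 6.74 and 10.6. The top of the list therefore held regions called from 0 h on and regions called first after 4-OHT.

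The 5 distal CHD4-uncalled regions with the highest Ikaros rank were nearest to Zfp626, Map3k20, Ddx3x, Xbp1 and Emilin1, with mean ranks of 83.0 to 94.3. The region nearest to Xbp1, a transcription factor of the unfolded protein response (chr11:5505802-5506434, between genes, 14225 bp from a protein-coding TSS), had folds of 3.02 and 3.48 at 0 h, 5.34 and 6.81 at 1 h, and 5.83 and 6.72 at 2 h. At 30 min its fold was 4.58 in replicate 1, and replicate 2 had no call. All 4 values at 1 h and 2 h were above both 0 h values, but the region was picked for its high 2 h rank. The Emilin1 region (chr5:30915871-30916664, in an intron of Emilin1) ran the other way, with folds of 11.2 and 11.9 at 0 h and 5.20 and 7.36 at 2 h. These folds are single peaks read against the background of their own library.

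The 10 CHD4-uncalled regions with the highest H3K27ac rank lay at or nearest to Arrdc3, Eif2a, Elk4, Hmgn2, Brd2, Ywhaz, Plekho2, Kat7, Tra2b and Usp38. Their mean ranks were 98.5 to 99.5. Kat7, which encodes a histone acetyltransferase, was the only 1 of the 10 that was also among the 10 highest for Ikaros. Its H3K27ac ranks were 99.6 and 99.5 at 0 h and 98.9 and 100 at 2 h. Brd2, a reader of acetylated histones, had ranks of 99.8 and 95.2 at 0 h and 99.2 and 99.9 at 2 h. Plekho2, a gene of the fast repressed list, was nearest to the only distal region of the 10 (15824 bp from its protein-coding TSS), and its ranks were 99.9 and 100 at 0 h and 98.7 and 99.4 at 2 h. These ranks belong to the whole merged H3K27ac region, which can be wider than the Ikaros region. The H3K27ac fold at the Plekho2 region itself was 59.3 and 29.3 at 0 h, 47.9 and 31.0 at 30 min, 6.37 and 5.27 at 1 h, and 5.53 and 32.9 at 2 h, so the replicates parted at 2 h and the rank did not follow the fold. Their mean 2 h Ikaros rank ran from 14.3 at Elk4 to 95.8 at Kat7. At Arrdc3 and Elk4 it was called in the 2 h lists alone, with mean ranks of 26.6 and 14.3, so high acetylation stood beside a low Ikaros rank there.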

How the data were processed

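ChIP-seq was analysed from 24 peak lists of B3 cells (Ikaros, CHD4 and H3K27ac, 4 times, 2 replicates). Input libraries had no lists and were not analysed here. Per the labels, the authors aligned reads to mm10 with Bowtie2 2.4.2, marked duplicates with Picard 2.23.7 and called peaks with MACS2 2.2.7.1. Narrow peaks were called for Ikaros and H3K27ac and broad peaks for CHD4, and for the 30 min libraries the calling settings are not given in the sources used here. The deposited fold enrichment (a ratio to local background) was used for ranks. The deposited −log10 p and −log10 q were used as alternatives and thresholds. The lists hold no read counts, so no count model was run. Coverage, recovered from fold and p and tested on simulated lists, was 1.98 to 3.40 fragments per base for Ikaros and 2.69 to 3.75 for H3K27ac after the scaling by the peak caller, and is unknown for CHD4. Between 37.0% and 66.5% of the peaks of a list met the value given for it, so these are estimates.

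Overlap needed 1 bp. A region took its highest peak. TSSs, exons and genes came from GENCODE M21 on GRCm38, coordinates are 1-based, and promoters lay within 1 kb of any TSS. Groups came from the library titles. Each measure gave 1 value per library, compared by exact two-sided sign-flip or Spearman permutation tests with Benjamini-Hochberg adjustment over 8 tests. Over single regions, differences between replicate numbers did not move together (correlations of -0.0098 to 0.044 between times), so replicates were not treated as paired. The correlations do not cover the class means. For the H3K27ac rank difference, replicate 1 minus replicate 2 was -1.45, -0.244, -1.01 and -2.90 points from 0 h to 2 h. Bins were 5 quantile bins of both classes, each with at least 20 regions of either. Python 3.11.15, numpy 2.4.6, scipy 1.17.1 and pyfaidx 0.9.0.4 were used, and the rule and tests were checked on simulated lists. The members and gene lists were chosen with earlier results of these data known. Named regions were the 10 members with the highest 2 h Ikaros rank, the 5 highest among distal members, the 10 with the highest H3K27ac rank and those nearest to list genes. Alternatives covered thresholds, overlap, list length, the CHD4 class, ranks, distances and replicates. Bins of width, the summit distance, the Ikaros settings named as added, and the comparison of distal with promoter regions were chosen after seeing the data. A result on a further marker gene is not reported here.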

Additional observations from a re-analysis of the deposited data

Results flagged for a closer look

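Promoter and distal regions differed in how the CHD4-uncalled regions compared with the CHD4-called ones, by tests of the difference itself that were added after the values were seen (exact sign-flip permutation tests over 8 libraries, p = 0.00781 for each, the smallest possible, adjusted over 3 tests p = 0.00781). The Ikaros rank gap was wider at distal regions by -4.66 ± 3.28 rank points (SD, n = 8). The H3K27ac rank gap was wider by -13.6 ± 2.00 points. The core word difference was lower at distal regions by -0.486 ± 0.27 words per 100 bp, since it was above 0 at promoters and below 0 at distal regions in 8 of 8 libraries. Distal CHD4-uncalled regions numbered 190, of which 42 to 135 were called in each Ikaros list before 2 h.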

How the results depend on the processing

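The number of CHD4-uncalled regions, 1213, depended on the CHD4 calls. It was 5429 with CHD4 peaks of −log10 q of at least 3 alone, 2706 with the CHD4 lists trimmed to 1 length, and 3360 to 4994 with the lists of 1 replicate. The other 4 settings gave values within 1.5 times of 1213. The difference in promoter share was 27.5 points with the stricter CHD4 peaks, 49.6 against regions with CHD4 in all 8 lists, and 16.6 to 27.1 with 1 replicate, above 0 under every setting tried. The Ikaros rank difference was -17.5 to -13.4 with a library or a replicate left out, and the H3K27ac rank difference -18.3 to -7.74. With 1 replicate, 4 libraries allow no exact permutation p below 0.125, and the -7.74 came without replicate 1. Under the other 16 and 12 settings both kept their direction and call. The trend of the Ikaros rank difference changed sign with uncalled regions at rank 0 (rho 0.098) and lost its call against regions with CHD4 in all 8 lists (rho -0.68), with log2 fold in place of the rank (-0.68) and over regions called in all 8 Ikaros lists (-0.73), the last 2 chosen after seeing the data. Without 1 library it was -0.97 to -0.90. The distal H3K27ac trend was 0.50 to 0.79 without 1 library, and passed unadjusted without 1 h replicate 1 (0.79, exact permutation p = 0.0413). Without both 2 h libraries it was 0.36. The call share difference was -25.3 points without the 30 min libraries and -32.7 to -27.7 without 1 library, where 4 or 5 libraries allow no exact permutation p below 0.125 or 0.0625. The core word difference was 0.021 for TGGGAA and TTCCCA, a planned setting where it lost its call (exact sign-flip permutation test, p = 0.0859). It was -0.304 at distal regions and 0.354 within bins of equal 2 h Ikaros rank. Within bins of equal width, chosen after seeing the data, it was 0.027 and also lost its call. The causes of these changes were not tested.

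Over single regions, replicate numbers did not pair the libraries, but the H3K27ac rank difference was the lower in replicate 1 at each time. A replicate block changed no call. With the replicate block, rho was -1 for the Ikaros trend (exact permutation p = 0.00347), 0 for H3K27ac (p = 1), 0.5 for distal (p = 0.295) and 0.2 for promoter regions (p = 0.733). A region without a call may lie just under a threshold.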

Other observations

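Single promoters in the CHD4-uncalled class changed their H3K27ac rank between 0 h and 2 h, and those named here were chosen after their values were seen. The region at Pax7, a paired box transcription factor gene, went from ranks of 72.6 and 71.7 at 0 h to 36.5 and 25.5 at 2 h. It was called for Ikaros in 8 of 8 lists. The region at Gstt3, a glutathione transferase gene, went from 71.4 and 66.9 to 27.3 and 28.8, and the region at Arhgap27 from 42.2 and 55.3 to 3.13 and 15.4. In the other direction, the region at Atp6v1e1, a subunit of the vacuolar proton pump, went from 38.8 and 19.4 to 77.5 and 67.8. The region at Map3k11 went from 32.4 and 22.8 to 76.7 and 60.9. Neither of the last 2 was called for Ikaros at 0 h. The 5 were picked for large changes in the same direction in both replicates, so that the replicates match follows from the choice.

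Values at 3 list genes, also chosen after they were seen, did not move one way. At Rpa2 it was 39.7 and 70.3 at 0 h and 86.3 and 84.0 at 2 h. At Orc4 it was 64.3 and 75 at 0 h and 59.5 and 51.2 at 2 h. At the cell cycle gene Ccna2 it went from 85.4 and 87.9 to 75.1 and 70.4.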
